A study of Mus musculus with 8 samples.

Results

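The mouse genes of the γδ T cell and innate-like T cell lineages examined here were Trdc, Trgc1, Trgc2, Blk, Kit, Sox13 and Zbtb16. They were taken by gene symbol from the count tables of a bulk RNA-seq study of T follicular helper (Tfh) cells, which are CD4+ and support germinal centre B cells. All 7 were among the 16735 genes present in both count tables, and all 7 were among the 14418 that passed the filter on low counts. The study compared Tfh cells that carried the ZsGreen mark of a Th17 past with Tfh cells that did not, in order to define signature genes of Th17-derived Tfh cells.

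There were 4 groups of 2 libraries each, ZsGreen+ Tfh and ZsGreen− Tfh of Peyer's patch, a lymphoid organ in the gut wall, and ZsGreen+ Tfh and ZsGreen− Tfh of spleen. All came from K/BxN Th17 fate-mapping mice. K/BxN mice carry the KRN αβ T cell receptor transgene and develop arthritis, so the controls share that background with the marked cells. The sources used here do not give the promoter of the Cre, the age of the mice or the number of mice per library. After enrichment of CD4+ T cells, the Tfh cells were sorted as TCRβ+, CD25−, CXCR5+ and PD-1+, a gate that keeps cells with a surface αβ receptor. Replicates 1 and 2 of every group came from experiments 1 and 2. The labels do not say whether they are separate animals, so the p-values reflect a spread between samples that may be technical.

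The libraries held 10009823 to 15323743 estimated counts. Levels are given as CPM, counts scaled to library size, with TMM factors, for replicate 1 and then replicate 2. Cd4 lay between 673 and 1360 CPM, Cxcr5 between 105 and 802, Pdcd1 between 374 and 1580 and Bcl6 between 16.6 and 244 over the 8 libraries, so the markers of the labelled cell type were present in each. The sort marker Cxcr5 moved with the spleen contrast, at 124 and 105 CPM in ZsGreen+ libraries, against 351 and 390 CPM in ZsGreen− libraries (log2 fold change -1.69 ± 0.17, SE; edgeR adjusted p = 0.000127). Bcl6 had a log2 fold change of -0.92 in spleen (adjusted p = 0.0921), and Cxcr5 one of -0.31 in Peyer's patch (adjusted p = 0.687). The αβ receptor constant genes differed strongly between experiments. Trac was 8.41- to 17.2-fold higher in experiment 2 than in experiment 1, whereas Cd4 was 0.524- to 0.723-fold of its level there.

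T cells carry either an αβ or a γδ antigen receptor, each a pair of chains with rearranged variable segments joined to a constant region. Trdc encodes the constant region of the δ chain and lies inside the locus of the α chain. Trgc1 and Trgc2 encode constant regions of γ chains and lie in the γ locus. In mice, γδ T cells that make IL-17 depend on Blk, a Src-family kinase first known from B cells, and a subset of them on Sox13, a transcription factor of the γδ lineage. Zbtb16 encodes PLZF, the transcription factor that directs innate-like development in NKT cells, MAIT cells, innate lymphoid precursors and some γδ T cells. Kit encodes the receptor for stem cell factor, known from mast cells, haematopoietic progenitors and innate lymphoid cells.

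On the mm39 build used by the files, Trdc spans chr14:54380308-54386325 (plus strand), Trgc1 chr13:19398273-19401194 (plus) and Trgc2 chr13:19488819-19491721 (minus). Blk spans chr14:63610285-63654486 (minus), Kit chr5:75735576-75817382 (plus), Sox13 chr1:133310041-133352115 (minus) and Zbtb16 chr9:48565597-48747522 (minus). These are whole gene spans, exons and introns together. Trdc overlaps Trdv5, a variable segment on the other strand, and the library notes name a non-directional preparation, in which reads of the 2 strands cannot be told apart. No other member overlapped an annotated gene.

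Trgc1 and Trgc2 are near copies, so the split of reads between them is uncertain. Their transcripts of 924 and 914 bases were 94.5% identical over 922 aligned columns, and 487 of 500 aligned coding bases were the same. Of the 50-base windows of Trgc1, 17.9% occur unchanged in Trgc2. Among 60-base coding windows aligned without gaps within 1 exon, the pair with the most differences is printed first. Stretches found in 1 gene alone were left out of that search, and Trgc1 has 515 coding bases against 500 for Trgc2. The windows were read from the GENCODE M21 transcripts and placed on GRCm38, another build than that of the files. Capitals mark the 3 bases that differ, the letters by which a read here could be assigned to 1 gene.
Trgc1, chr13:19214190-19214249, plus strand: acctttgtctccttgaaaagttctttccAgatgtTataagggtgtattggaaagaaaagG
Trgc2, chr13:19307405-19307464, minus strand: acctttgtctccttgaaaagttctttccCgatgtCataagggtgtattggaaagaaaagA
The longest coding stretch with no difference, 86 bases, shows where a read could come from either gene. It lies at chr13:19216526-19216611 on the plus strand in Trgc1 and at chr13:19305067-19305152 on the minus strand in Trgc2.
Trgc1 and Trgc2: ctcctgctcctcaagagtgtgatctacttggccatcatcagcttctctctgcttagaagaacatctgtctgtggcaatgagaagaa

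The first comparison set ZsGreen+ against ZsGreen− cells within each tissue. In spleen, ZsGreen+ Tfh had more Blk and Kit mRNA and less Trdc mRNA. Those of Peyer's patch had more Kit mRNA, and no other member passed there. Of the 7 members, 1 was higher and 0 were lower in Peyer's patch at an adjusted p under 0.05, where 0.284% of all genes tested were higher and 0.153% lower. In spleen 2 were higher and 1 was lower, against 4.53% and 4.09% of all genes. Cxcr5 was lower in the same spleen contrast, and its part in the members' spleen values was not tested. With no term for the experiment, 0 members passed in either tissue by edgeR (adjusted p of Blk in spleen = 0.844). Nor did any other of the 14418 genes tested, so that result is not particular to the members. The members' median log2 fold change was 1.41 in Peyer's patch and 1.69 in spleen, beside 0.00159 and -0.0312 over all genes tested. By the criterion of the study, a fold change cut-off of 1.5 with an unadjusted p under 0.05, 4 members were higher and 2 lower in Peyer's patch (2.64% and 1.95% of all genes), and 4 were higher and 1 lower in spleen (6.4% and 7.47%).

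**Figure D1:**
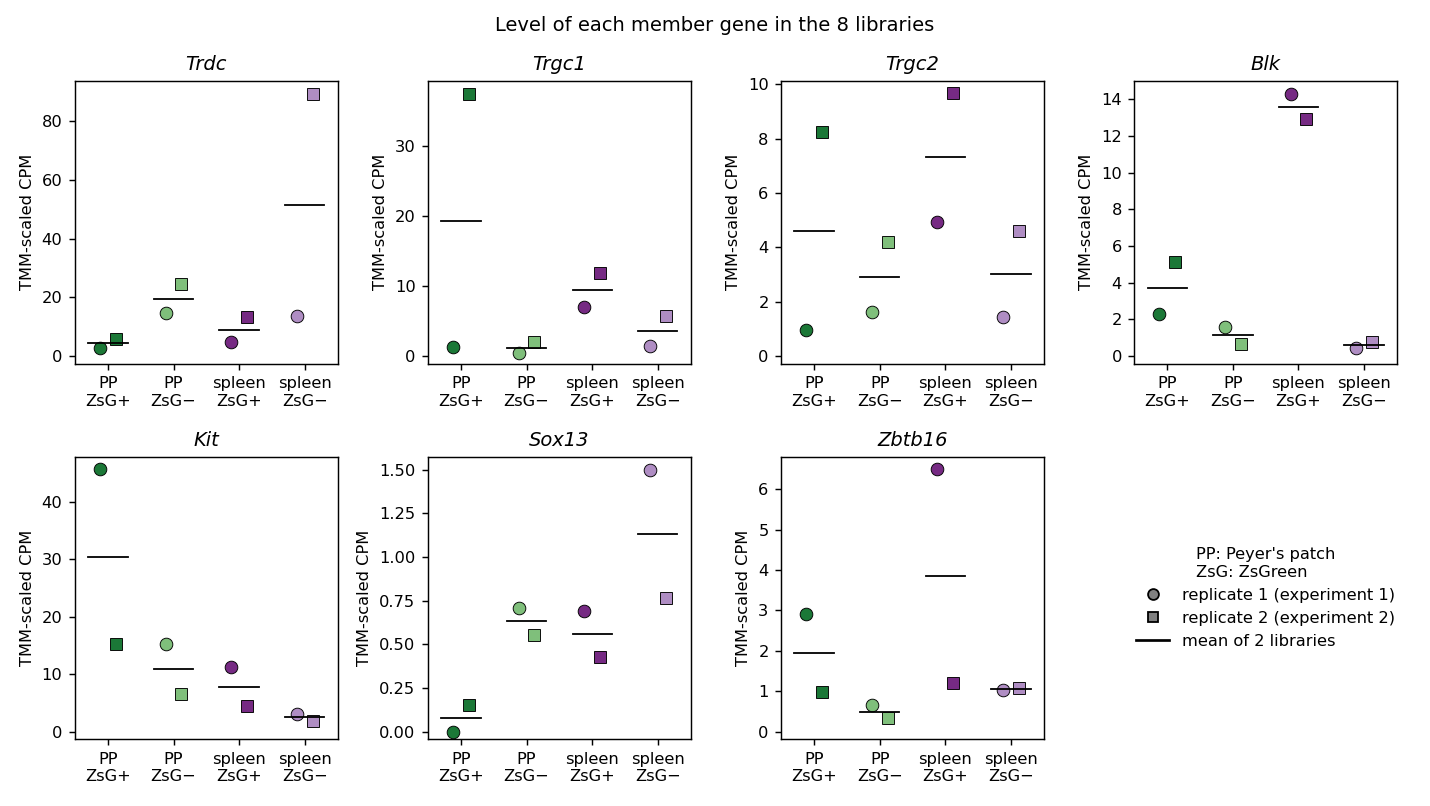
TMM-scaled CPM of each of the 7 genes in the 8 libraries on linear axes, by tissue (PP is Peyer's patch) and ZsGreen sort (ZsG), with circles for replicate 1, squares for replicate 2 and bars for the mean of the pair. Blk is high in the spleen ZsGreen+ libraries (14.3 and 12.9 CPM) and Kit is highest in those of Peyer's patch ZsGreen+ cells (45.6 and 15.2), while Trdc is lower in ZsGreen+ than in ZsGreen− libraries of the same experiment.

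Trdc, the δ constant region, was lower in ZsGreen+ cells. It stood at 4.58 and 13.1 CPM in spleen ZsGreen+ libraries, against 13.7 and 89.4 CPM in spleen ZsGreen− libraries. The Peyer's patch values were 2.70 and 5.78 CPM in ZsGreen+ libraries, against 14.5 and 24.4 CPM in ZsGreen− libraries. Neither tissue's groups overlapped. Replicate 2 of spleen ZsGreen− had the highest level of the 8 libraries, with 583 counts. In bulk samples fewer cells with Trdc mRNA and less Trdc mRNA per cell cannot be told apart.

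The log2 fold change of Trdc was -2.29 ± 0.47 in spleen (SE; edgeR adjusted p = 0.0398), a level 4.88-fold lower in ZsGreen+ cells. For Peyer's patch it was -2.32 ± 0.50, and the adjusted p was 0.249 (unadjusted p = 0.00377). DESeq2 gave an adjusted p of 4.67e-05 there. Within experiments 1 and 2 the log2 differences were -1.56 and -2.76 in spleen and -2.37 and -2.05 in Peyer's patch. The spleen call did not hold without spleen ZsGreen+ replicate 1 (adjusted p = 0.257) or 2 (0.308), or Peyer's patch ZsGreen+ replicate 1 (0.104) or 2 (0.0966). The Peyer's patch difference passed without spleen ZsGreen− replicate 1 (adjusted p = 0.000367) or 2 (0.000902). The contrasts of the 2 tissues differed by -0.03 on the log2 scale, with a 95% interval from -1.61 to 1.55.

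Trgc1, a γ constant region, was at 1.24 and 37.5 CPM in Peyer's patch ZsGreen+ libraries, against 0.381 and 1.99 CPM in ZsGreen− libraries. Replicate 2 of Peyer's patch ZsGreen+ stood far above the other 7 libraries, and replicate 1 lay between the ZsGreen− values. In spleen Trgc1 was at 7.03 and 11.8 CPM in ZsGreen+ libraries, against 1.44 and 5.67 CPM in ZsGreen− libraries, with no overlap. The log2 fold changes were 3.54 ± 1.26 in Peyer's patch and 1.84 ± 1.11 in spleen, and neither passed (adjusted p = 0.609 and 0.444). The spleen difference passed when Peyer's patch ZsGreen+ replicate 1 (adjusted p = 0.0128) or 2 (0.0232) was left out of the fit. The Peyer's patch call differed by tool and library, with a DESeq2 adjusted p of 0.00242 and an edgeR adjusted p of 0.000414 without Peyer's patch ZsGreen+ replicate 1.

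Trgc2, another γ constant region of the locus, was at 4.95 and 9.69 CPM in spleen ZsGreen+ libraries, against 1.44 and 4.6 CPM in spleen ZsGreen− libraries. The log2 fold change was 1.46 ± 0.48 in spleen (adjusted p = 0.0929), and it passed without Peyer's patch ZsGreen+ replicate 1 (0.0345) or 2 (0.0400). The Peyer's patch levels were 0.956 and 8.25 CPM in ZsGreen+ libraries, against 1.63 and 4.21 CPM in ZsGreen− libraries. There the groups overlapped, and the log2 fold change of 0.32 (adjusted p = 0.927) became -0.82 without Peyer's patch ZsGreen+ replicate 2. With the counts of Trgc1 and Trgc2 added up before the test, the log2 fold change was 2 in Peyer's patch (adjusted p = 0.73) and 1.66 in spleen (adjusted p = 0.425).

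The share of Trgc1 among the counts of Trgc1 and Trgc2 was 56.4% and 82.0% in Peyer's patch ZsGreen+ libraries, against 18.9% and 32.1% in Peyer's patch ZsGreen− libraries. The exact 95% binomial intervals were 39.6% to 72.2% and 78.7% to 84.9% in the ZsGreen+ libraries, and 7.96% to 35.2% and 20.3% to 46.0% in the ZsGreen− libraries. In spleen the share was 58.7% and 55.0% in ZsGreen+ libraries, against 50% and 55.4% in ZsGreen− libraries. The ZsGreen+ shares lay above the ZsGreen− shares in Peyer's patch and overlapped them in spleen. The intervals cover counting error only, not the uncertain split of reads between the copies.

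The ratio of γ to δ constant-region mRNA was higher in the ZsGreen+ than in the ZsGreen− libraries of both tissues. Per kilobase of exon, the summed level of Trgc1 and Trgc2 was 3.41 and 33.3 times that of Trdc in Peyer's patch ZsGreen+ libraries, against 0.585 and 1.07 times in Peyer's patch ZsGreen− libraries. In spleen it was 11 and 6.90 times that of Trdc in ZsGreen+ libraries, against 0.882 and 0.485 times in ZsGreen− libraries. In both tissues each ZsGreen+ library stood above each ZsGreen− library. The ratio is given as a description, with no test.

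**Figure D2:**
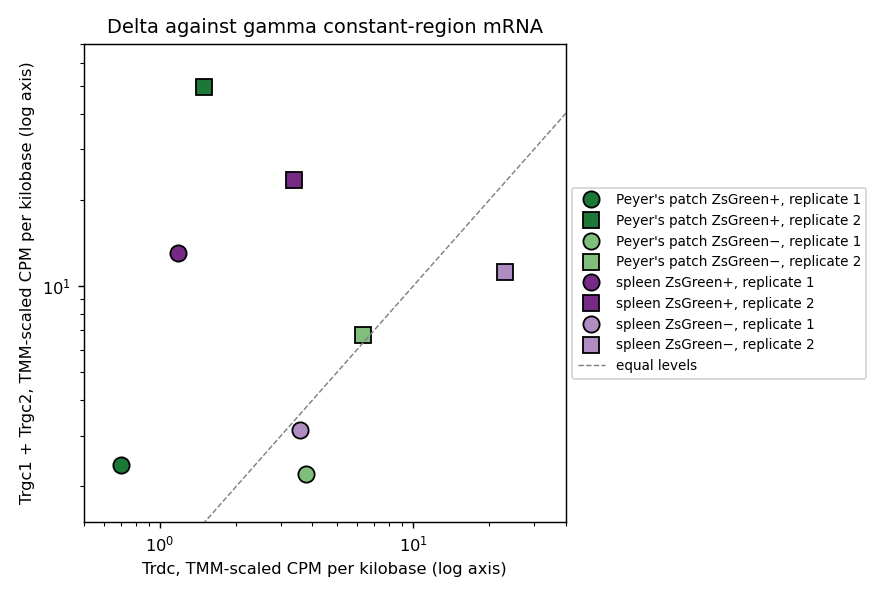
Summed level of Trgc1 and Trgc2 against the level of Trdc, both in TMM-scaled CPM per kilobase of exon on log axes, 1 point per library, with a dashed line at equal levels. The 4 ZsGreen+ libraries lie above the line by 3.41 to 33.3 times, and the 4 ZsGreen− libraries lie near or below it, at 0.485 to 1.07 times.

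Relative to αβ receptor mRNA the same order was seen for Trdc within each experiment. Per 1000 CPM of Trac, Trbc1 and Trbc2 together, Trdc was at 0.79 and 0.222 in Peyer's patch ZsGreen+ libraries, against 4.24 and 0.856 in ZsGreen− libraries. In spleen it was at 1.25 and 0.424 in ZsGreen+ libraries, against 5.23 and 2.15 in ZsGreen− libraries. Trgc1 and Trgc2 together were at 3.26 and 0.696 in spleen ZsGreen+ libraries, against 1.10 and 0.247 in spleen ZsGreen− libraries. Experiment 2, with its higher αβ receptor mRNA, had the lower of the 2 Trdc shares in each group.

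Other parts of the γδ receptor were sparse. Of 23 listed γδ receptor segments, 8 were in both tables and 4 were tested, Trdv1, Trdv2-2, Trgc4 and Trgv2. None passed in either tissue by edgeR or DESeq2, and by edgeR's unadjusted p under 0.05 the counts were 0 in Peyer's patch and 1 in spleen. That 1 was Trgv2, named after its values were seen, a γ variable segment at 2.13 and 1.97 CPM in spleen ZsGreen+ libraries, against 0.214 and 0.46 CPM in spleen ZsGreen− libraries (40 and 23 counts against 4 and 3). Its log2 fold change was 2.74 ± 0.94 (adjusted p = 0.105). Of the 8 genes for αβ receptor chains, CD3 subunits and CD4, 0 passed in Peyer's patch by both tools and 0 had an unadjusted p under 0.05. In spleen 1 of the 8 was lower, Cd3e, at 354 and 1010 CPM in ZsGreen+ libraries, against 501 and 2170 CPM in ZsGreen− libraries (log2 fold change -0.83, adjusted p = 0.0426).

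Blk had the largest log2 fold change in spleen among the 7 members. It was at 14.3 and 12.9 CPM in spleen ZsGreen+ libraries, against 0.428 and 0.767 CPM in spleen ZsGreen− libraries (269 and 151 counts against 8 and 5). The 2 ZsGreen+ values were close to each other and far above the ZsGreen− values. The log2 fold change was 4.63 ± 0.57 (SE; edgeR adjusted p = 0.000647), a 24.8-fold difference, and the call held when any 1 of the 8 libraries was left out. In Peyer's patch Blk was at 2.31 and 5.10 CPM in ZsGreen+ libraries, against 1.58 and 0.665 CPM in ZsGreen− libraries. These groups did not overlap either, but the log2 fold change of 1.54 ± 0.51 had an adjusted p of 0.39 (unadjusted p = 0.0109).

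The contrast of Blk in Peyer's patch minus that in spleen was -3.09 ± 0.78, with a 95% interval from -4.79 to -1.38 before adjustment. By edgeR's quasi-likelihood test Blk was the single member with an unadjusted p under 0.05 for this difference. After adjustment 0 of 7 members passed by edgeR, where 0.0971% of all genes did, and 0 passed by DESeq2. The adjusted p of Blk was 0.194 by edgeR (unadjusted p = 0.00203) and 0.0618 by DESeq2. Without Peyer's patch ZsGreen+ replicate 2 the edgeR adjusted p was 0.0428. Among ZsGreen+ cells, Blk was lower in Peyer's patch than in spleen, at -1.93 ± 0.45 (adjusted p = 0.0145). That call was lost without Peyer's patch ZsGreen+ replicate 1 (adjusted p = 0.191) or spleen ZsGreen+ replicate 1 (0.134) or 2 (0.0578).

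Since Blk is also a B cell gene, markers of B cells are given beside it. Of 13 tested B cell genes, 0 were higher and 3 were lower in spleen ZsGreen+ cells, Cd22, Ighm and Pou2af1. Among Peyer's patch cells 0 were higher and 1, Cd22, was lower. The summed level of the list was 236 to 247 CPM in spleen ZsGreen+ libraries, against 341 to 841 CPM in spleen ZsGreen− libraries. Ms4a1, a B cell surface protein gene, was at 0.479 and 0.343 CPM in spleen ZsGreen+ libraries, against 0 counts in both ZsGreen− libraries, and Cd79a had at most 5 counts in any spleen library. Ms4a1 and Cd79a were thus at or near 0 in the spleen libraries where Blk was highest.

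In Peyer's patch the B cell markers were less even. Ms4a1 was at 4.33 and 0.45 CPM in ZsGreen+ libraries, against 1.58 and 0.111 CPM in ZsGreen− libraries. Cd79a was at 6.47 and 0.675 CPM in ZsGreen+ libraries, against 5.17 and 0.775 CPM in ZsGreen− libraries. The higher values were those of experiment 1 in both sorts, and their part in the Peyer's patch values of Blk was not tested. The list's sum was 539 to 696 CPM in ZsGreen+ libraries, against 615 to 808 CPM in ZsGreen− libraries.

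The gene next to Blk on the chromosome, Fam167a, lies 19.4 kb away on the other strand. It was looked up by a rule added after the members' values were seen, the nearest tested gene on each side that is no receptor segment. Fam167a was at 21.5 and 1.11 CPM in spleen ZsGreen+ libraries, against 0.267 and 0.307 CPM in spleen ZsGreen− libraries, with a log2 fold change of 5.29 ± 0.90 (adjusted p = 0.00504). Replicate 1 of spleen ZsGreen+ carried most of its counts. For Neil2, the neighbour on the other side at 179 kb, the log2 value was 0.55 (adjusted p = 0.616).

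**Figure D3:**
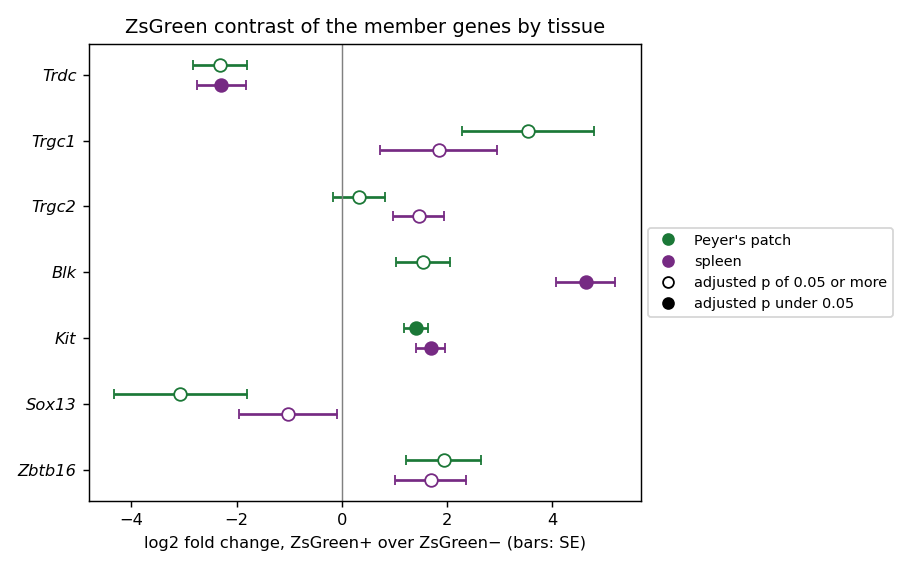
Fitted log2 fold change of ZsGreen+ over ZsGreen− for each of the 7 genes in Peyer's patch and spleen, with bars of 1 SE and filled points for adjusted p under 0.05. Blk, Kit and Trdc passed in spleen at 4.63, 1.69 and -2.29, and Kit alone passed in Peyer's patch at 1.41.

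Kit was higher in ZsGreen+ cells of both tissues and higher in Peyer's patch than in spleen. Its levels were 45.6 and 15.2 CPM in Peyer's patch ZsGreen+ libraries, against 15.3 and 6.54 CPM in Peyer's patch ZsGreen− libraries. In spleen it was at 11.2 and 4.46 CPM in ZsGreen+ libraries, against 3.10 and 1.84 CPM in ZsGreen− libraries. Across experiments the Peyer's patch groups just overlapped, since experiment 2 had 0.332- to 0.593-fold of the Kit level of experiment 1. Within each experiment every ZsGreen+ library was above its ZsGreen− counterpart.

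The log2 fold change of Kit was 1.41 ± 0.23 in Peyer's patch (SE; edgeR adjusted p = 0.0203), or 2.66-fold, and 1.69 ± 0.28 in spleen (adjusted p = 0.00351), or 3.22-fold. The contrasts of the 2 tissues differed by -0.28, with a 95% interval from -1.06 to 0.50. The Peyer's patch call was lost without Peyer's patch ZsGreen+ replicate 1 (adjusted p = 0.347), ZsGreen− replicate 1 (0.484) or ZsGreen− replicate 2 (0.162). The spleen call was lost without spleen ZsGreen− replicate 1 (adjusted p = 0.129).

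Mast cell and progenitor markers were mostly too low to test, with 3 of 15 tested. Cpa3, a mast cell protease, had a row in the experiment 2 table alone, with 2 counts in all. The summed level of the list was 14.1 to 15.4 CPM in Peyer's patch ZsGreen+ libraries, against 12.2 to 14.8 CPM in Peyer's patch ZsGreen− libraries, and 16.7 to 21.4 CPM in spleen ZsGreen+ libraries, against 11.3 to 13.8 CPM in spleen ZsGreen− libraries. In Peyer's patch 0 of the 3 passed by either tool, and 0 had an unadjusted p under 0.05. In spleen Hdc, the enzyme that makes histamine, was at 4.05 and 14.8 CPM in ZsGreen+ libraries, against 1.12 and 2.76 CPM in ZsGreen− libraries (log2 fold change 2.15, adjusted p = 0.00839). Hpgds, a prostaglandin D synthase, was lower there (log2 fold change -1.60, adjusted p = 0.0453). The part of Hdc-expressing cells in the spleen Kit values was not tested.

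Sox13 was close to the limit of detection, with 71 counts over the 8 libraries. It had 0 and 2 counts in Peyer's patch ZsGreen+ libraries, against 18 in the 2 Peyer's patch ZsGreen− libraries together. In spleen it was at 0.692 and 0.429 CPM in ZsGreen+ libraries, against 1.50 and 0.767 CPM in ZsGreen− libraries. ZsGreen+ values were the lower ones in both tissues, without overlap. Neither difference passed, with adjusted p of 0.55 in Peyer's patch and 0.585 in spleen, and the spleen log2 fold change was -1.02 with a 95% interval from -3.05 to 1.02.

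Zbtb16, the gene of PLZF, was at 2.92 and 0.975 CPM in Peyer's patch ZsGreen+ libraries, against 0.653 and 0.332 CPM in Peyer's patch ZsGreen− libraries. In spleen it was at 6.50 and 1.2 CPM in ZsGreen+ libraries, against 1.02 and 1.07 CPM in ZsGreen− libraries. Replicate 1 of spleen ZsGreen+ was well above the rest, and replicate 2 lay just above the ZsGreen− libraries. The log2 fold changes were 1.94 ± 0.71 in Peyer's patch and 1.69 ± 0.67 in spleen, and neither passed (adjusted p = 0.449 and 0.164). Zbtb16 had 242 counts in all.

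Taken by whether the libraries of the 2 sorts overlapped, 2 members were higher and 2 lower without overlap in Peyer's patch (5.59% and 5.22% of all genes), Blk and Zbtb16 against Trdc and Sox13. In spleen 5 were higher and 2 lower without overlap (8.49% and 9.79%). The 2 lower ones were again Trdc and Sox13.

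The second comparison set Peyer's patch against spleen within each sort. Among ZsGreen+ cells 1 of 7 members was higher and 1 was lower in Peyer's patch, where 5.51% and 7.17% of all genes were, and these were Kit and Blk. Among ZsGreen− cells 1 was higher and 0 were lower, against 1.82% and 3.68% of all genes. Kit was higher in Peyer's patch by 1.90 ± 0.23 on the log2 scale in ZsGreen+ cells (adjusted p = 0.000276) and by 2.18 ± 0.28 in ZsGreen− cells (adjusted p = 0.000857). Both Kit calls held without any 1 of the 8 libraries. Blk in ZsGreen− cells had a log2 difference of 1.16 (adjusted p = 0.395). The log2 differences of Trdc were -0.99 in ZsGreen+ cells and -0.96 in ZsGreen− cells and did not pass, and without spleen ZsGreen− replicate 1 both passed (adjusted p = 0.0134 and 0.00229). The ZsGreen+ difference of Trdc also passed without spleen ZsGreen− replicate 2 (0.0273), and those of Trgc1 (-2.19, adjusted p = 0.0366) and Trgc2 (-2.24, adjusted p = 0.0272) passed without Peyer's patch ZsGreen+ replicate 2. With all libraries the difference of Trgc1 was 0.00057 (adjusted p = 0.999).

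The order of levels over the 4 groups differed between members. Trdc had the highest mean in spleen ZsGreen− (51.6 ± 53.5 CPM, SD, n = 2), followed by Peyer's patch ZsGreen− (19.5 ± 6.96), spleen ZsGreen+ (8.85 ± 6.04) and Peyer's patch ZsGreen+ (4.24 ± 2.18). Kit ran from Peyer's patch ZsGreen+ (30.4 ± 21.5 CPM) through Peyer's patch ZsGreen− (10.9 ± 6.23) and spleen ZsGreen+ (7.85 ± 4.79) to spleen ZsGreen− (2.47 ± 0.893). Blk ran from spleen ZsGreen+ (13.6 ± 0.976 CPM) through Peyer's patch ZsGreen+ (3.70 ± 1.98) and Peyer's patch ZsGreen− (1.12 ± 0.646) to spleen ZsGreen− (0.597 ± 0.239). The step of Blk between both ZsGreen+ groups passed its test, and so did that of Kit between the sorts of each tissue. Spleen ZsGreen+ and Peyer's patch ZsGreen− lay within 1 SD of each other for Kit. Neighbouring Trdc groups lay within 1 SD of each other, except spleen ZsGreen+ and Peyer's patch ZsGreen−, which are compared in no contrast here. The SD of 2 libraries includes the difference between experiments, which the tests take out, so groups within 1 SD may still differ. The Kit means of the Peyer's patch sorts, whose step passed, also lay within 1 SD of Peyer's patch ZsGreen+. Trgc1 averaged 19.4 ± 25.6 CPM in Peyer's patch ZsGreen+, 9.43 ± 3.39 in spleen ZsGreen+, 3.56 ± 2.99 in spleen ZsGreen− and 1.19 ± 1.14 in Peyer's patch ZsGreen−, and Trgc2 averaged 7.32 ± 3.35 in spleen ZsGreen+ as its highest mean.

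Per kilobase of exon, which allows genes to be compared, Trgc1 had the highest mean of the 7 in Peyer's patch ZsGreen+ (21 CPM per kb) and in spleen ZsGreen+ (10.2). The Peyer's patch ZsGreen+ mean of Trgc1 rested on replicate 2, at 1.34 and 40.6 CPM per kb, and in replicate 1 Kit was higher, at 5.12. Trdc was the highest in Peyer's patch ZsGreen− (5.03) and in spleen ZsGreen− (13.3). Blk stood at 5.05 CPM per kb in spleen ZsGreen+ and 0.221 in spleen ZsGreen−. Kit stood at 3.41 in Peyer's patch ZsGreen+ and 1.23 in Peyer's patch ZsGreen−. Sox13 was the lowest of the 7 per kilobase in Peyer's patch ZsGreen+, at 0.0174, and in spleen ZsGreen+, at 0.130.

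The 4 signalling and transcription factor genes were set against the constant regions as the log2 ratio of their counts to the summed counts of Trdc, Trgc1 and Trgc2 (prior count 2), not per length, so the ratio is read across libraries only. For Blk it was -0.21 and -1.41 in spleen ZsGreen+ libraries, against -4.97 and -6.54 in spleen ZsGreen− libraries, and -1.05 and -3.30 in Peyer's patch ZsGreen+ libraries, against -3.30 and -5.12 in Peyer's patch ZsGreen− libraries. For Kit it was 3.19 and -1.76 in Peyer's patch ZsGreen+ libraries, against -0.11 and -2.19 in ZsGreen− libraries. In each experiment both tissues had higher ratios of Blk and Kit in ZsGreen+ cells. Zbtb16 followed the same order, at -1.34 and -4.67 in spleen ZsGreen+ libraries, against -3.90 and -6.18 in spleen ZsGreen− libraries. The ratios also move with Trdc, which is part of the sum and was lower in ZsGreen+ cells. In replicate 2 of spleen, Zbtb16 itself was at 1.2 CPM in ZsGreen+ and 1.07 CPM in ZsGreen− cells. The summed constant-region counts there were 404 in ZsGreen+ cells, against 650 in ZsGreen− cells, of which 583 were Trdc. Sox13 had the opposite order in Peyer's patch, at -5.48 and -7.43 in Peyer's patch ZsGreen+ libraries, against -4.35 and -5.31 in Peyer's patch ZsGreen− libraries. Its ratios rest on few counts.

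**Figure D4:**
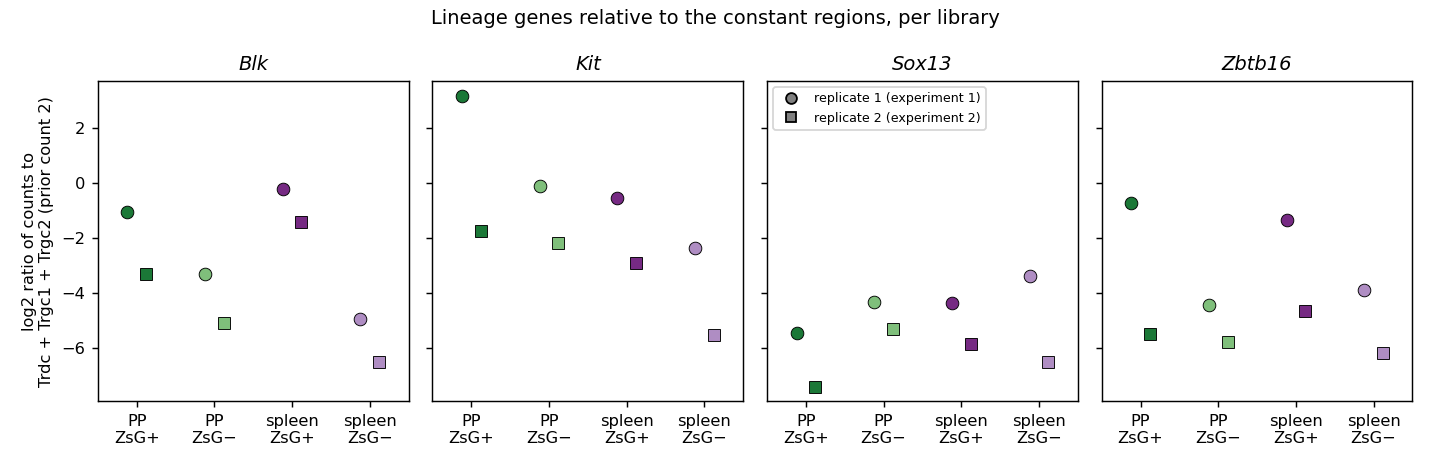
Log2 ratio of the counts of Blk, Kit, Sox13 and Zbtb16 to the summed counts of Trdc, Trgc1 and Trgc2 in each library, with circles for replicate 1 and squares for replicate 2. Blk in spleen lies at -0.21 and -1.41 in ZsGreen+ libraries, against -4.97 and -6.54 in ZsGreen− libraries. Replicate 2 is plotted as the lower of the pair in each group for Blk, Kit, Sox13 and Zbtb16. For Sox13 in Peyer's patch ZsGreen+ that order comes from the prior count of 2, since replicate 1 had 0 counts and replicate 2 had 2.

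Correlations over the 8 libraries, after centring log2 CPM within each experiment, are given as descriptions, since the libraries share groups and depth. Trgc2 and Blk had r = 0.83, Trgc1 and Zbtb16 r = 0.764, Trgc1 and Trgc2 r = 0.75, and Trdc and Sox13 r = 0.752. Kit and Sox13 had r = -0.90, and Trdc and Kit r = -0.785. Among the members Trdc was thus most like Sox13, and Trgc2 most like Blk. Sox13 had 71 counts in all, so its correlations rest on few counts. For the genes named next, 10214 or 10215 genes were searched per member over 8 libraries. A high r does not mean a fold change of like size, since Isy1 had a spleen log2 fold change of 0.36, beside 4.63 for Blk. Among genes at a mean of 5 CPM or more, the 3 most like Trdc were H2-Q1 (r = 0.99), Tle5 (0.989) and Tapbp (0.986), and the 3 most like Blk were Isy1 (0.988), Emc6 (0.981) and Dcaf13 (0.981). Those most like Kit were Wdfy1 (0.989), Mrpl13 (0.987) and Fads1 (0.987), and the genes most like Trgc1 were Stard3nl (0.951), Gm9797 (0.945) and Tmem138 (0.932). The closest to Trgc2 was Etfa (0.962), to Sox13 Ddr1 (0.972) and to Zbtb16 Cox5b-ps (0.985).

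Stard3nl is also the nearest tested gene beside the γ locus, 141 kb from Trgc1 and 50.1 kb from Trgc2. It was at 33.7 and 94.0 CPM in spleen ZsGreen+ libraries, against 24.2 and 86.3 CPM in spleen ZsGreen− libraries. Its log2 fold change was 0.30 in both tissues and passed in neither (adjusted p = 0.672 in Peyer's patch and 0.278 in spleen).

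The wider program of IL-17-producing γδ T cells, most of which is shared with Th17 cells, was higher in ZsGreen+ cells for many of its genes. Of 28 tested, 6 were higher and 1 was lower in Peyer's patch, and 15 were higher and 3 lower in spleen. Over all genes tested, 0.284% were higher and 0.153% lower in Peyer's patch, and 4.53% and 4.09% in spleen. The same shares stand beside the counts of the other gene lists. The median log2 fold change was 1.52 in Peyer's patch and 2.85 in spleen. Il23r, a subunit of the IL-23 receptor, was higher by 3.29 on the log2 scale in Peyer's patch (adjusted p = 0.000526) and by 4.57 in spleen (adjusted p = 4.8e-06). Sox4, a SOX family transcription factor, was lower, at 1.33 and 1.71 CPM in spleen ZsGreen+ libraries, against 46.6 and 28.1 CPM in spleen ZsGreen− libraries (log2 fold change -4.63, adjusted p = 9.41e-06).

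The scavenger receptor genes Scart1 and Scart2, known from mouse γδ T cells, were among the genes higher in spleen and were named after their values were seen. Scart1 was at 73.4 and 25.5 CPM in spleen ZsGreen+ libraries, against 9.89 and 3.37 CPM in spleen ZsGreen− libraries (log2 fold change 2.82 ± 0.42, adjusted p = 0.00874). Scart2 was at 17.0 and 6.86 CPM in spleen ZsGreen+ libraries, against 2.51 and 0.613 CPM in spleen ZsGreen− libraries (log2 fold change 2.88 ± 0.51, adjusted p = 0.00538). In neither gene did the groups overlap. Their log2 fold changes in Peyer's patch were 1.29 and 1.14, and neither passed (adjusted p = 0.439 and 0.703).

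The program of interferon-γ-producing γδ T cells had 12 tested genes, of which 0 were higher and 2 lower in Peyer's patch, and 0 higher and 3 lower in spleen. The lower ones in spleen were Eomes, a T-box transcription factor, Ccl5, a chemokine, and Cd27, a costimulatory receptor of the TNF receptor family. Eomes was at 0.745 and 0.0857 CPM in spleen ZsGreen+ libraries, against 38.8 and 11.2 CPM in spleen ZsGreen− libraries, a log2 fold change of -5.96 (adjusted p = 2.21e-05). Ccl5 was at 1.60 and 1.29 CPM in spleen ZsGreen+ libraries, against 36.9 and 40.9 CPM in spleen ZsGreen− libraries, a log2 fold change of -4.78 (adjusted p = 1.37e-05). Trdc, Eomes and Ccl5 were all at their highest mean levels in spleen ZsGreen− libraries. Of the 12 genes, Cd27, Il2rb, Klrc1, Egr3 and Nr4a1 had their highest means in other groups. The spleen ZsGreen− mean of Trdc rested on replicate 2 (89.4 CPM). Its replicate 1 (13.7 CPM) was below replicate 1 of Peyer's patch ZsGreen− (14.5 CPM). A link between Trdc and this list was not tested.

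The list of PLZF-dependent innate-like T cells (NKT and MAIT) moved in both directions. Of 17 tested genes, 1 was higher and 0 were lower in Peyer's patch, and 5 were higher and 3 lower in spleen, with a median log2 fold change of 0.0952 in both tissues. Klrb1f, a C-type lectin-like receptor gene, was at 7.99 and 21.7 CPM in spleen ZsGreen+ libraries, against 1.39 and 3.37 CPM in spleen ZsGreen− libraries (log2 fold change 2.60, adjusted p = 0.000517). Il18rap, a subunit of the IL-18 receptor, was higher by 1.54 on the log2 scale in Peyer's patch (adjusted p = 0.0433) and by 1.59 in spleen (adjusted p = 0.00231). Slamf6, a SLAM family receptor, was lower in spleen, with a log2 fold change of -1.18 (adjusted p = 0.00298).

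Innate lymphoid genes, 13 tested, had 0 passing in Peyer's patch by edgeR and by DESeq2 and 1 with an unadjusted p under 0.05. In spleen 2 were higher, Il2ra and Id2, and 4 were lower. Among 22 signalling partners of BLK and KIT, 0 passed in Peyer's patch by either tool and 2 had an unadjusted p under 0.05. In spleen 0 of these were higher and 2 were lower, the Src-family kinase gene Fgr (log2 fold change -2.17, adjusted p = 0.0399) and the adaptor gene Sh2b3 (-0.56, adjusted p = 0.0457). Kitl, the ligand of KIT, stayed at 0.327 to 2.67 CPM over the 8 libraries.

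Of 16 SOX and PLZF partner genes, 0 were higher and 1 was lower in Peyer's patch, and 1 was higher and 7 were lower in spleen. The higher one was Id2, an inhibitor of E proteins, and the lower ones included its relative Id3, at 50.1 and 150 CPM in spleen ZsGreen+ libraries, against 143 and 499 CPM in spleen ZsGreen− libraries (log2 fold change -1.62, adjusted p = 0.000624). Lists of CD8 T and NK cells (5 tested) and myeloid cells (9 tested) had 0 genes passing in either tissue by edgeR. By DESeq2 1 CD8 T or NK cell gene was lower in Peyer's patch and 2 in spleen, and 0 myeloid genes passed. At an unadjusted p under 0.05 by edgeR there were 1 and 2 CD8 T or NK cell genes and 1 and 1 myeloid genes. The CD8 T and NK cell markers summed to 33.2 to 137 CPM in spleen ZsGreen+ libraries, against 37.2 to 66.2 CPM in spleen ZsGreen− libraries, and their part in the values of Trdc and Blk was not tested.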

How the data were processed

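Messenger RNA of 8 libraries was analysed. The deposited raw tables hold estimated counts (expected counts) per gene, since per library 20.8% to 31.2% of them were not whole within 0.01. The deposited normalized tables hold a signal scaled by the authors within each experiment, used for 1 alternative only. The submitters' processing notes name Partek, STAR, DESeq2 and mm39, with no version or setting in the sources used here. Per the labels' protocols, RNA was extracted with Trizol and the mRNA libraries used poly A selection or a non-directional kit for ultra-low input.

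Estimated counts of the 16735 genes in both tables (18114 in experiment 1, 20397 in experiment 2) were rounded. After filterByExpr, 14418 genes were tested with edgeR 4.0.16 (R 4.3.3; minimum count 10, minimum total 15) and TMM factors from 0.656 to 1.24. Its quasi-likelihood F test, two-sided, had a mean per group and a term for the experiment, with 3 residual degrees of freedom. P-values were Benjamini-Hochberg adjusted over all genes tested, with a threshold of 0.05. The replicate numbers name the experiment, so they pair the samples, and across genes the deviations of same-numbered libraries correlated at 0.825 to 0.867.

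SE was derived from the F statistic, and intervals are at 95%. Exon lengths and transcripts were from GENCODE M21. Alternatives used DESeq2 1.42.0 and limma 3.58.1. The edgeR fit was tested on simulated counts. The members and gene lists were chosen with earlier results of these data known. All members were named, with the 3 genes most like each and up to 4 genes per list by smallest adjusted p. Names outside this rule are marked where they occur or stand as markers.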

Additional observations from a re-analysis of the deposited data

How the results depend on the processing

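Without the experiment term (no replicate block), 0 members passed in any contrast, and 0 of the 14418 genes tested did. In Peyer's patch, the count of members higher in ZsGreen+ cells was 1, and 0 with no replicate block, 2 by DESeq2, 0 by limma on the deposited signal and 0 to 1 when 1 library was left out. The count lower was 0, and 1 by DESeq2 and 0 to 1 by library. In spleen 2 were higher, with 0 without the block, 1 among genes at a mean of 5 CPM or more, where Blk was not tested, and 1 to 4 by library. There 1 was lower, with 0 without the block, 0 with no filter (Trdc adjusted p = 0.0514) and 0 to 1 by library. For the difference between tissues 0 were lower, and 0 to 1 by library. Among ZsGreen+ cells 1 was higher and 1 lower in Peyer's patch than in spleen, with 0 and 0 without the block, 0 lower at 5 CPM or more, and 0 to 3 lower by library. Among ZsGreen− cells 1 was higher, with 0 without the block, and 0 were lower, with 0 to 1 by library.

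Signs turned for differences that had not passed. Leaving out 1 library gave Trgc2 in Peyer's patch -0.82 to 1.01 (log2). For the difference between tissues it gave Trdc -0.90 to 0.69, Trgc1 -0.60 to 3.07, Kit -0.47 to 0.17 and Zbtb16 -0.43 to 1.44, and Trdc was 0.35 without the block. For Peyer's patch over spleen in ZsGreen+ cells, Trgc1 was 0.00057, and -0.036 with RLE scaling, -0.18 by DESeq2, -0.0057 with no filter, -0.42 by limma, -0.30 summed with Trgc2 and -2.19 to 1.30 by library, and Zbtb16 was -1.43 to 0.12 by library. In ZsGreen− cells Trgc2 was -0.037 without the block and -0.21 to 0.26 by library, and Blk -0.0081 to 1.72. The causes were not tested. Kit in Peyer's patch did not pass by limma (adjusted p = 0.0683). By DESeq2 the IL-17 γδ program had 11 genes higher in Peyer's patch in place of 6, the PLZF list 2 in place of 1, and the interferon-γ program 1 higher in spleen in place of 0. Over all genes DESeq2 also called more, with 79 higher in Peyer's patch in place of 41 and 799 higher in spleen in place of 653. Depth limits Sox13 and Zbtb16 most.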
